A study of Elaeis guineensis with 58 samples.

Results

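The plastid photosystem I genes described here are psaA, psaB, psaC, psaI and psaJ, together with ycf3 and ycf4, which encode assembly factors of the complex. They were chosen by name, and all 7 were present among the 27986 genes counted in oil palm (Elaeis guineensis) leaf libraries, 79 of which are protein-coding genes with a plastid symbol. The libraries came from the spear leaf, the unopened frond F0, of ortets, the parent palms that supply tissue for clonal propagation. The study asked how leaf transcriptomes differ between ortets that had given no, few or many embryoid lines in earlier tissue culture. RNA was read from the 3' end with a QuantSeq forward kit, which primes on poly(A). A value here is therefore the number of 3' end reads assigned to a gene. How such reads relate to the amount of a plastid transcript was not tested.

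Agency L1 supplied 32 palms, 17 in the zero group (no embryoid lines) and 15 in the low group (1 to 89 lines). All of its libraries were made from CTAB extracts and read for 100 bases. In L1 the genotype label Dumpy Avros covered 5 zero and 7 low palms, and Dumpy Yangambi Avros covered 12 zero and 8 low palms. Agency L2 supplied 20 palms, 6 zero, 6 low and 8 high (at least 90 lines), extracted with an InnuPREP kit and read for 50 bases. In L2 the genotype label follows the group closely. The label Yangambi_A covered all 6 zero palms and no other. Yangambi_B covered 4 low palms, and Yangambi_C covered 1 low and 1 high palm. Jen Avros covered 1 low and 6 high palms, and the last high palm was Jen Avros Yangambi. For 6 L2 palms, 2 of each group, a second library was made from a CTAB extract, which gives 58 libraries from 52 palms. Replicates within a group are separate palms, and the leaf sampled is not the tissue that was put into culture.

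Photosystem I is the pigment and protein complex of the thylakoid membrane that passes electrons from plastocyanin to ferredoxin. In land plants its reaction centre is the pair of large proteins PsaA and PsaB, and PsaC holds the terminal iron-sulphur clusters. PsaI and PsaJ are small membrane subunits, and Ycf3 and Ycf4 help to assemble the complex without being part of it. The other subunits and the light-harvesting proteins are encoded in the nucleus. Their products are not named for the LOC identifiers used here, so nuclear subunits and nuclear leaf markers could not be matched. In the EG11 gene table psaA lies between psaB and ycf3, and psaI lies between accD and ycf4. Gene psaC follows ndhD and precedes ndhE, and psaJ precedes rpl33.

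The L1 libraries held 3943437 to 9685451 counts in genes, the L2 InnuPREP libraries 8773354 to 15004694 and the L2 CTAB libraries 4215872 to 7580573. Plastid genes took 3.87% to 15.5% of counts in L1, 1.64% to 4.69% in L2 InnuPREP libraries and 4.42% to 7.80% in L2 CTAB libraries. The leaf genes rbcL (large subunit of Rubisco) and psbA (D1 protein of photosystem II) were read in every library, with at least 289 and 237 CPM. CPM stands for counts per 1000000 counts in genes, scaled by TMM over all 58 libraries. In such bulk samples, fewer plastid-rich cells and less plastid RNA per cell cannot be told apart. Each gene is therefore also given as its share of all plastid gene counts in a library.

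The reaction centre genes psaA and psaB had overlapping ranges in all groups. Gene psaA had a median of 126 CPM in L1 zero palms (lowest 57.2, highest 219) and 100.2 CPM in L1 low palms (29.9 to 309). In L2 InnuPREP libraries its medians were 82.0 CPM in zero (65.9 to 96.5), 83.7 in low (54.5 to 183) and 65.6 in high palms (40.7 to 83.3), and it was 67.7 CPM in L2 CTAB libraries (33.6 to 92.0). All 6 ranges of psaA overlap. Gene psaB had medians of 357 CPM in L1 zero palms (153 to 870) and 100.3 CPM in L1 low palms (25.9 to 884). In L2 its medians were 142 CPM in zero (67.7 to 296), 222 in low (81.2 to 414), 102 in high palms (76.2 to 432) and 113 in CTAB libraries (78.5 to 171). The ranges of psaB overlap as well, and the spread within L1 low palms is wider than the distance between any of the medians.

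Genes psaC and psaI separated the CTAB libraries from the InnuPREP libraries. In L1, psaC had medians of 84.3 CPM in zero palms (26.8 to 171) and 85.5 in low palms (27.3 to 175). In L2 CTAB libraries it was 51.2 CPM (23.7 to 78.5). In L2 InnuPREP libraries it was 7.63 CPM in zero (4.72 to 10.4), 9.89 in low (7.67 to 10.8) and 7.84 in high palms (2.90 to 13.2). Every CTAB library of either agency thus lay above every InnuPREP library. The same held for psaI, with medians of 96.0 and 104 CPM in L1 zero (21.5 to 150) and low palms (30.7 to 188) and 46.5 CPM in L2 CTAB libraries (27.4 to 61.8). In L2 InnuPREP libraries psaI was 8.97 CPM in zero (6.50 to 16.8), 7.75 in low (5.29 to 10.1) and 7.51 in high palms (2.81 to 12.5). These low levels rest on 30 to 141 reads of psaC and 29 to 189 reads of psaI per InnuPREP library, so the counting error is largest for these genes.

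Gene psaJ had medians of 231 CPM in L1 zero (80.8 to 386) and 121 CPM in L1 low palms (10.9 to 428). In L2 it was 61.1 CPM in zero (32.8 to 94.5), 71.9 in low (42.7 to 99.7), 104 in high palms (68.2 to 190) and 146 in CTAB libraries (78.3 to 197). The assembly factor gene ycf3 had medians of 2060 and 2203 CPM in L1 zero (683 to 2828) and low palms (1422 to 4129) and 1368 CPM in L2 CTAB libraries (753 to 1823). In L2 InnuPREP libraries ycf3 was 494 CPM in zero (261 to 535), 470 in low (373 to 602) and 441 in high palms (348 to 661), all below every CTAB library. The other assembly factor gene, ycf4, had medians of 1451 CPM in L1 zero (847 to 2180), 784 in L1 low (189 to 1797) and 714 in L2 CTAB libraries (583 to 856). In L2 InnuPREP libraries ycf4 was 347 CPM in zero (140 to 655), 362 in low (178 to 519) and 288 in high palms (160 to 815). For ycf4 only the L1 zero palms lay wholly above all 3 InnuPREP groups.

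**Figure D1:**
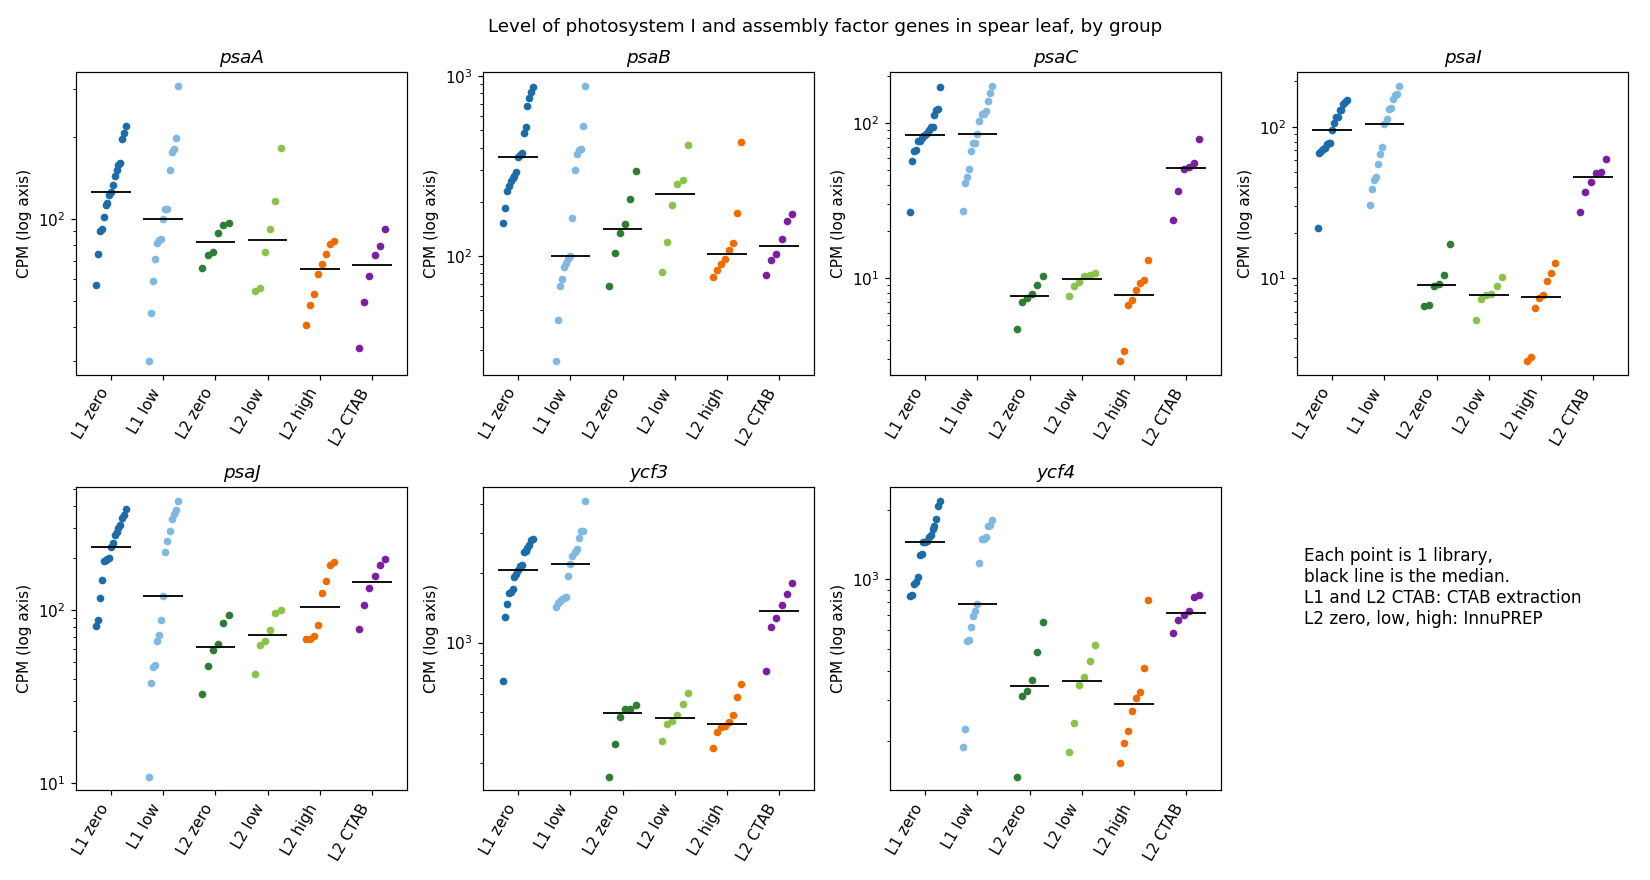
CPM (log axis) of each gene in each of the 58 libraries, by group, with 1 point per library and a black line at the median. The CTAB libraries (L1 zero, L1 low and L2 CTAB) lie above the InnuPREP libraries without overlap for psaC, psaI and ycf3, while the ranges of psaA and psaB overlap in all groups.

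The 6 palms extracted by both methods compare CTAB with InnuPREP libraries within a palm. Other library measures differed along with the extract. Counts in genes averaged 12658000 with InnuPREP and 5934000 with CTAB. Reads outside annotated genes took 10.0% and 18.3% of the reads tallied, and reads with several alignments 13.5% and 24.9%. These differences cannot be told apart from the extract. Gene psaC rose from 7.86 to 51.9 CPM in zero palm 2, from 10.4 to 55.1 in zero palm 6, from 10.8 to 50.4 in low palm 5, from 9.44 to 78.5 in low palm 6, from 3.39 to 23.7 in high palm 3 and from 6.71 to 36.7 in high palm 8. Its ratio of CTAB over InnuPREP was 4.66 to 8.31 in the 6 palms. For psaI the ratio ran from 3.00 in zero palm 6 to 9.09 in high palm 3, with a median of 6.90. For ycf3 it ran from 1.85 to 3.18, and for ycf4 from 1.40 to 4.16. In edgeR's quasi-likelihood test with the palm as a block, the log2 differences were 2.59 ± 0.12 for psaC (SE, adjusted p = 7.15e-12), 2.59 ± 0.17 for psaI (5.19e-09), 1.47 ± 0.10 for ycf3 (1.15e-09) and 1.09 ± 0.17 for ycf4 (1.95e-04). These are the 4 of 7 genes that passed an adjusted p of 0.05 over all genes, all of them higher in CTAB libraries. These are 57.1% of the members, where 53.8% of all genes tested passed in either direction and 25.3% were higher with CTAB. The reaction centre genes did not pass in edgeR, with log2 differences of -0.27 ± 0.14 for psaA (adjusted p = 0.11) and -0.41 ± 0.28 for psaB (0.262). Their CPM was higher with CTAB in 2 and 1 of 6 palms.

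The total plastid level also rose with CTAB, since 59 of 88 plastid genes tested were higher and 3 lower, so the share of plastid counts shows what moved within the plastid. The share of psaA was lower with CTAB in 6 of 6 palms, at 0.289 to 0.719 of its InnuPREP value (median 0.522), and that of psaB was lower in 6 of 6 palms (0.192 to 0.855, median 0.503). The shares of psaC and psaI were higher in 6 of 6 palms, with median ratios of 3.51 and 3.92. The share of ycf3 was higher in 6 of 6 palms (median ratio 1.73) and that of ycf4 in 5 of 6 (median ratio 1.15). An exact sign-flip permutation test over 6 palms cannot go below p = 0.03125, which psaA, psaB, psaC, psaI and ycf3 reached. Reaching it was not particular to the members. Of the plastid genes near them, accD, ndhE, petA, rps14, rps18 and rps4 reached it too. The nearby genes cemA, ndhD, ndhG, petG, rpl33 and trnS-GGA did not. After adjustment over the 85 plastid genes tested, each gene that reached it had p = 0.0553, and 0% of the 85 passed. The mean share of psaB was 0.230% ± 0.0914 with CTAB and 0.505% ± 0.167 with InnuPREP (SD, n = 6), and that of psaC was 0.0870% ± 0.0198 and 0.0246% ± 0.00938.

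Gene psaJ did not move in 1 direction between extractions. It had 47.8 CPM with InnuPREP and 197 with CTAB in zero palm 2, 42.7 and 135 in low palm 5, and 148 and 78.3 in high palm 3, which lay the other way. The log2 difference was 0.80 ± 0.45 (edgeR adjusted p = 0.19). Without high palm 3 it was 1.14 and passed (adjusted p = 0.0441). That palm also had the largest rise of ycf4, from 160 to 665 CPM, the smallest rise of ycf3 and the lowest ratio of psaA.

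**Figure D2:**
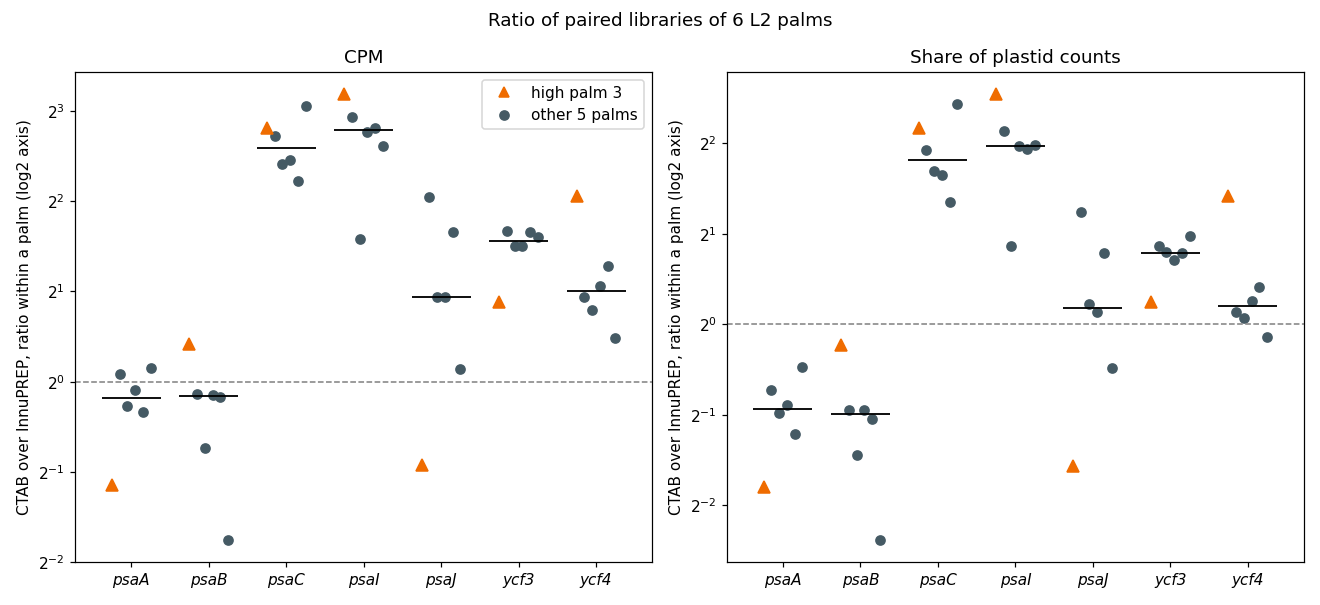
Ratio of the CTAB to the InnuPREP library of each of 6 palms (log2 axis), for CPM on the left and the share of plastid counts on the right, with a black line at the median and the dashed line at no difference. The ratios of psaC and psaI lie above 1 in every palm, the share ratios of psaA and psaB lie below 1 in every palm, and high palm 3 lies apart for psaJ and ycf4.

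Of 13 plastid genes near the members, 11 passed between extractions, all higher with CTAB, and petG (0.76, adjusted p = 0.096) and trnS-GGA, which directly follows ycf3 (0.43, 0.398), did not. In the same edgeR fit, rps14 next to psaB was higher by 3.06 (adjusted p = 4.99e-14), although psaB itself was not. Beside psaC, ndhE was higher by 1.99 (1.19e-04) and ndhD by 0.62 (0.0193). Beside psaI and ycf4, accD was higher by 1.07 (1.77e-08) and cemA by 1.72 (9.84e-07). Beside psaJ, rpl33 was higher by 0.93 (8.69e-08), and beyond trnS-GGA, rps4 was higher by 1.58 (4.78e-10). Of the other light reaction genes encoded in the plastid, 9 of 15 photosystem II genes, 4 of 6 cytochrome b6f genes, 8 of 10 NDH complex genes and 4 of 6 ATP synthase genes were higher with CTAB, and 1 ATP synthase gene was lower. The median log2 difference was 1.09 over the 7 photosystem I and assembly factor genes, 0.98 over the photosystem II genes, 0.90 over the 88 plastid genes tested and -0.03 over all genes tested. The passing share of the members, 57.1%, was below the 70.5% of all plastid genes.

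Agencies were compared within CTAB libraries, 32 from L1 and 6 from L2. In CPM, 5 of 7 genes (71.4%) were higher in L1 by edgeR, where 36.2% of all genes tested passed and 18.3% were higher. The log2 differences were 0.98 ± 0.32 for psaA (adjusted p = 0.0148), 1.49 ± 0.54 for psaB (0.027), 0.89 ± 0.29 for psaC (0.0156), 1.16 ± 0.32 for psaI (0.00466) and 0.68 ± 0.23 for ycf3 (0.0218). For ycf4 the difference was 0.77 ± 0.32 (0.0602, or 0.0312 with DESeq2, which passes) and for psaJ 0.57 ± 0.44 (0.328). The passes of psaB were lost without the CTAB library of zero palm 2 (adjusted p = 0.0571) or of low palm 6 (0.0611), and that of ycf3 without the one of high palm 3 (0.0596). Other plastid genes were higher as well, with 12 of 15 photosystem II, 5 of 6 cytochrome b6f, 7 of 10 NDH complex and 5 of 6 ATP synthase genes passing. Of the 85 plastid genes tested, 42 were higher and 2 lower.

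As shares of plastid counts, no member differed between agencies at an adjusted p of 0.05 in exact permutation tests, where 45.8% of 83 plastid genes did. The share of psaA was 0.112% ± 0.0351 in L1 (SD, n = 32) and 0.119% ± 0.0413 in L2 (SD, n = 6). That of psaC was 0.0812% ± 0.0227 and 0.0870% ± 0.0198. The widest relative gap was that of psaJ, 0.178% ± 0.0801 against 0.258% ± 0.0645 (exact permutation p = 0.0262, adjusted p = 0.0558), the one member with an unadjusted p below 0.05. With tRNA and rRNA genes left out of the total, psaJ (adjusted p = 0.0234), ycf3 (0.0438) and ycf4 (0.0376) passed as lower shares in L1 by the same exact permutation test. How many other plastid genes passed with that total was not counted, so these passes are not set apart from those of plastid genes at large. Read length and genotype labels differ with agency. Of the 6 L2 CTAB libraries 2 came from high palms, a group that L1 lacks, and the agency comparisons had no group term. These differences cannot be told apart.

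Within L2, psaJ was the 1 of 7 genes that differed between high palms and zero and low palms together, in a table where 40.5% of all genes tested passed. It had 117 ± 51.5 CPM in high palms (SD, n = 8) and 69.0 ± 22.0 CPM in zero and low palms (SD, n = 12). The log2 difference was 0.76 ± 0.24 (edgeR adjusted p = 0.0144). In the same fit, 4 of the 84 plastid genes tested, psaJ among them, were higher in high palms and 6 were lower (11.9% passed). Outside the members, psbA of photosystem II was higher by 1.01 ± 0.34 (edgeR adjusted p = 0.0218). So was ndhD beside psaC, by 0.40 ± 0.14 (0.0303), while rbcL did not pass (0.20 ± 0.18, 0.389). As shares of plastid counts, psbA and ndhD did not pass (exact permutation, adjusted p = 0.144 and 0.152). In the 6 Jen Avros high palms psaJ had 125, 182, 148, 68.5, 68.2 and 70.7 CPM for palms 1 to 6. The Yangambi_C palm 7 had 190 CPM and the Jen Avros Yangambi palm 8 had 82.3 CPM. Plastid tRNA and rRNA genes took 13.8% ± 5.03 of plastid counts in high palms and 12.96% ± 1.66 in the others. This tRNA and rRNA share was 18.9%, 19.2% and 20.4% in high palms 4, 5 and 6, above the highest zero or low palm (16.9%). In high palms 2 and 7 it was 9.28% and 7.18%, below the lowest zero or low palm (9.71%). High palms 1, 3 and 8 lay between. Its relation to psaJ CPM was not tested. In psaJ CPM, high palms 1, 2, 3 and 7 lay above every zero and low palm, and the other 4 lay within their range.

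The share of psaJ was 0.370% ± 0.179 of plastid counts in high palms and 0.206% ± 0.0495 in zero and low palms (exact permutation p = 0.00505, adjusted p = 0.0326). It was 1 of the 13 of 84 plastid genes, 15.5%, whose share differed. The difference stands on the same 4 palms. Leaving out any 1 of them raised the adjusted p to between 0.0698 and 0.0817, and leaving out zero palm 2, zero palm 3 or low palm 5 raised it to between 0.0510 and 0.0537. On the log2 scale of the share the adjusted p was 0.0554, and with tRNA and rRNA genes left out of the total it was 0.0273. Against zero palms alone psaJ was higher by 0.88 ± 0.29 (edgeR adjusted p = 0.0237, where 35.9% of genes passed). That pass was lost without high palm 2 or 7 or zero palm 1 or 2 (edgeR adjusted p from 0.051 to 0.0606). With CTAB libraries for 6 palms, in a fit of both extractions with no extraction term, the difference was 0.17 (edgeR adjusted p = 0.769). Against low palms alone psaJ was higher by 0.64 ± 0.29 and did not pass (edgeR adjusted p = 0.0988, where 28.1% of genes passed). Against low palms 2 of 7 members, psaA and psaJ, had an unadjusted p below 0.05 in edgeR, where 40.4% of all genes tested had. DESeq2 called 1 member, psaA, and the share of all genes it called is not given here.

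The psaJ difference was also computed with some CTAB libraries and with a genotype term. When the CTAB library replaced the InnuPREP library for the 6 palms that have both, the log2 difference was 0.26 and did not pass (edgeR adjusted p = 0.553). That fit held libraries of both extractions and no extraction term. It therefore mixes extraction into the comparison of groups and cannot show the group difference within 1 extraction. In the CTAB libraries the share of psaJ was 0.211% and 0.280% in high palms 3 and 8, 0.329% and 0.291% in zero palms 2 and 6, and 0.285% and 0.151% in low palms 5 and 6. With a genotype term in the fit the difference was 0.97 and did not pass (adjusted p = 0.235). The 2 labels found in more than 1 L2 group allow a look within a label. The Yangambi_C high palm had a psaJ share of 0.559% and the Yangambi_C low palm 0.204%. Jen Avros high palms ran from 0.144% to 0.624%, around the single Jen Avros low palm at 0.202%.

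**Figure D3:**
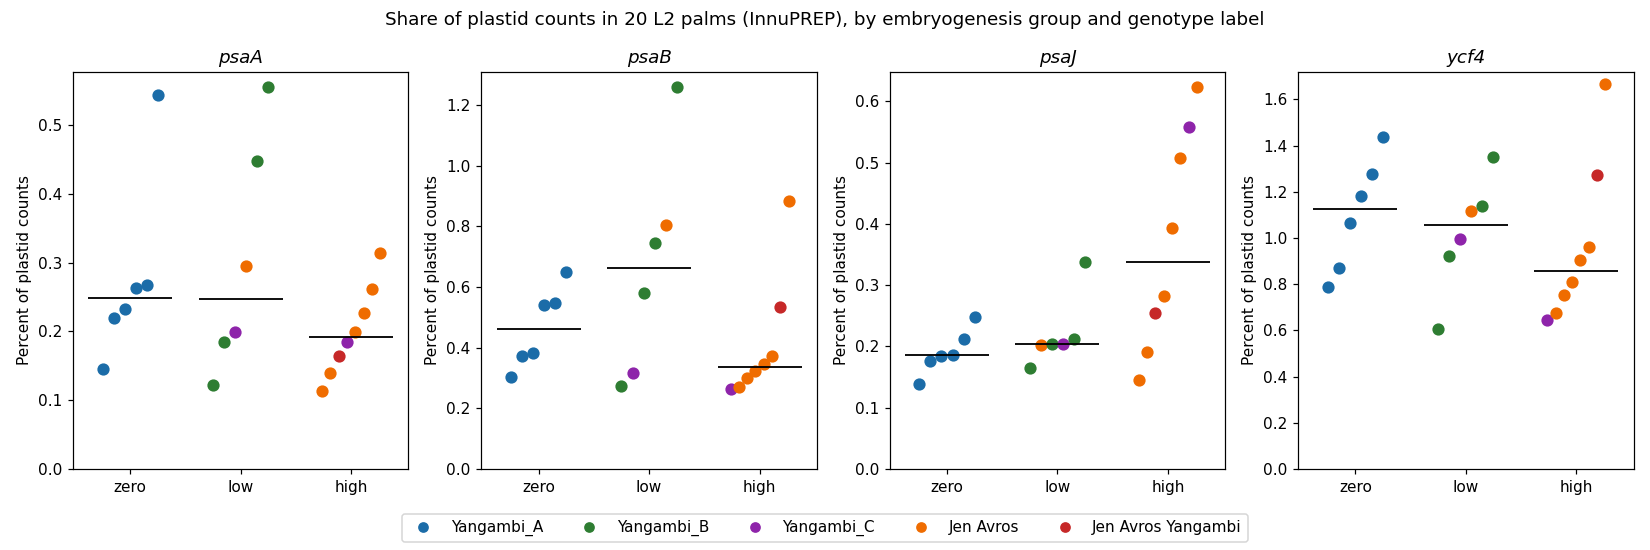
Share of plastid counts (percent) of psaA, psaB, psaJ and ycf4 in the 20 L2 palms, by embryogenesis group, coloured by genotype label, with a black line at the median. For psaJ, 4 of 8 high palms lie above all zero and low palms, and the other 4 lie among them.

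The other 6 genes did not pass between L2 high palms and the zero and low palms. The reaction centre gene psaA came closest, with a log2 difference of -0.48 ± 0.20 (edgeR adjusted p = 0.0586). The share of psaA averaged 0.201% ± 0.0655 over the 8 high palms and 0.290% ± 0.147 over the 12 others (SD, exact permutation p = 0.129, adjusted p = 0.315). The CPM difference passed with DESeq2 (-0.49, adjusted p = 0.0405), with terms for library quality (-0.68, 0.00837), with CTAB libraries for 6 palms (-0.58, 0.0438) and without any 1 of 4 palms (high 1, zero 4, low 4 or low 6). The fit with CTAB libraries for 6 palms mixed both extractions and had no extraction term. For psaB the log2 difference was -0.37 ± 0.36 (edgeR adjusted p = 0.433), or -0.84 without high palm 6, where it passed (0.037). For psaC, psaI and ycf4 the differences were -0.19 ± 0.23, -0.23 ± 0.25 and -0.12 ± 0.29, and for ycf3 0.03 ± 0.15. Between L2 low and zero palms none of the 7 genes passed, none had an unadjusted p below 0.05 in edgeR and none was called by DESeq2, while 0.176% of all genes passed in edgeR. The largest of these differences was that of psaB, 0.47 ± 0.45.

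In L1, low palms were lower than zero palms in the plastid share of ycf4. It was 0.874% ± 0.282 in low (SD, n = 15, lowest 0.549, median 0.821, highest 1.48) and 1.25% ± 0.248 in zero palms (SD, n = 17, lowest 0.910, median 1.26, highest 1.67). The permutation p was 4.5e-04 and the adjusted p 0.0374, and ycf4 was the only 1 of 83 plastid genes (1.2%) that passed. In 8 of 15 low palms the share lay below every zero palm. Both genotype labels had a lower mean in low palms, 0.891% against 1.35% in Dumpy Avros and 0.860% against 1.21% in Dumpy Yangambi Avros. The pass was lost in 19 of 34 alternatives, each of which left out 1 palm, with adjusted p from 0.00954 to 0.109 over all 34. By edgeR the CPM of ycf4 did not pass, with a log2 difference of -0.46 ± 0.25 (adjusted p = 0.709).

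Gene psaB had a share of 0.204% ± 0.207 in low and 0.368% ± 0.176 in zero palms (permutation p = 0.0197, adjusted p = 0.219). Its median was 0.111% in low and 0.319% in zero palms, and 9 of 15 low palms lay below every zero palm. Low palm 9 had the highest share of all 32 palms, 0.881%. Without that palm the shares of psaB (adjusted p = 0.00954) and ycf3 (0.0385) passed the permutation test along with that of ycf4, a choice made after its value was seen, and on the log2 scale of the share psaB passed with all palms (adjusted p = 0.0486). The share of ycf3 lay the other way, at 2.23% ± 0.762 in low and 1.76% ± 0.239 in zero palms (permutation p = 0.00802, adjusted p = 0.133). Its 4 highest palms were all low palms, up to 4.32%. Gene psaJ had 0.152% ± 0.0942 in low and 0.201% ± 0.0589 in zero palms (adjusted p = 0.318), with 4 of 15 low palms below every zero palm.

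The shares of psaA, psaC and psaI did not pass between the L1 groups (adjusted permutation p = 0.58, 0.515 and 0.633), at 0.106% ± 0.0316 and 0.118% ± 0.0379 for psaA in low and zero palms, 0.0858% ± 0.0271 and 0.0770% ± 0.0179 for psaC, and 0.0917% ± 0.0304 and 0.0843% ± 0.0219 for psaI. In CPM none of the 7 genes passed between L1 groups by edgeR, none had an unadjusted p below 0.05 and none was called by DESeq2. The same edgeR fit passed 0% of all genes, with 1337 of 18434 at an unadjusted p below 0.05 and none called by DESeq2. Some library measures differed in mean between the groups, with overlapping spread, and these differences were not tested. Plastid tRNA and rRNA genes took 6.61% ± 2.53 of plastid counts in low and 8.20% ± 2.30 in zero palms, and reads with several alignments took 21.5% ± 8.26 and 24.99% ± 8.19 of each table. Their part in the shares of ycf4 and psaB was not tested, apart from the total without tRNA and rRNA genes, with which ycf4 still passed.

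**Figure D4:**
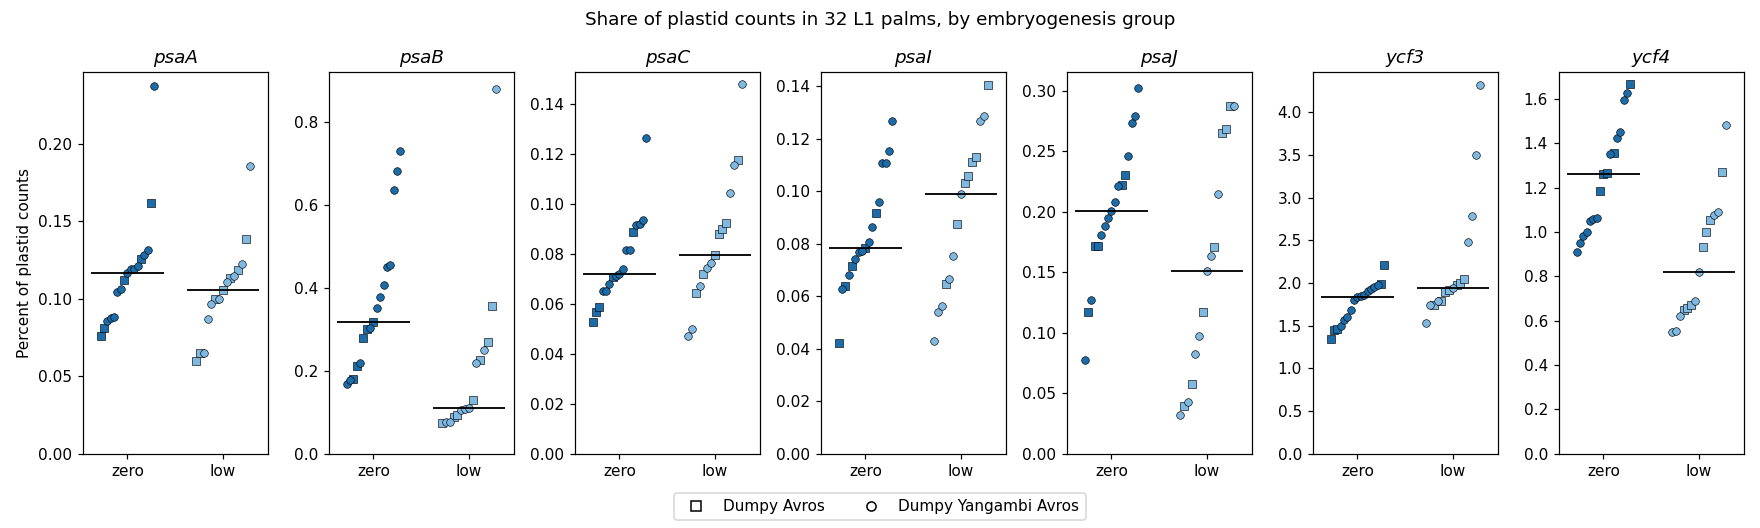
Share of plastid counts (percent) of each gene in 17 zero and 15 low L1 palms, with squares for Dumpy Avros, circles for Dumpy Yangambi Avros and a black line at the median. For ycf4, 8 of 15 low palms lie below all zero palms, for psaB 9 of 15, while for psaA, psaC and psaI at most 3 low palms lie beyond the zero palms on either side.

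Between the genotype labels of L1, none of the 7 genes passed. Gene psaB had the widest gap in CPM, a log2 difference of 0.67 ± 0.41 in Dumpy Yangambi Avros over Dumpy Avros (edgeR adjusted p = 0.751). Its share was 0.339% ± 0.238 (SD, n = 20) against 0.211% ± 0.0973 (SD, n = 12), with a permutation p of 0.0867 and an adjusted p of 0.994. No member had an unadjusted p below 0.05 in either test, and DESeq2 called no member. In the whole table edgeR passed 0% of genes, with 1315 of 18689 at an unadjusted p below 0.05, and DESeq2 called 14. The shares of 0% of the 83 plastid genes passed. The difference between low and zero palms was also compared between agencies in an interaction term. That fit held L1 CTAB and L2 InnuPREP libraries, and all L2 zero palms were Yangambi_A. Agency, extraction, read length and genotype label therefore cannot be told apart in it. None of the 7 genes passed, where 0.0485% of all genes did, none had an unadjusted p below 0.05 in edgeR and none was called by DESeq2. The term was -1.26 ± 0.69 for psaB (adjusted p = 0.643), the largest of the members.

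Some members varied together over palms. All 21 pairs were correlated on the log2 scale of the share in each agency, 42 relations in all, with permutation p-values adjusted over the 42. Shares have a common total and the palms of an agency share an extraction and a read length, so these values describe the libraries. By Pearson's r, 14 of the 42 had an adjusted p below 0.05, 9 in L1 and 5 in L2, of which 5 were negative, and by Spearman's rho 7 had. No relation of psaA was among them. Pairs of other plastid genes were not correlated in this way, so whether the members varied together more than other plastid genes was not tested. Genes psaB and ycf4 had r = 0.855 and rho = 0.803 over 32 L1 palms (adjusted permutation p = 1.05e-04 and 2.1e-04) and r = 0.769 and rho = 0.768 over 20 L2 palms (6.3e-04 and 0.00168). For each pair r was computed again without the 2 palms in which the gene earlier in the order psaA, psaB, psaC, psaI, psaJ, ycf3, ycf4 lay farthest from its median, which gave 0.842 and 0.707 here. Within groups it was 0.610 in L1 zero, 0.865 in L1 low, 0.657 in L2 zero and low and 0.920 in L2 high palms.

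Genes psaC and psaI had r = 0.760 in both agencies (adjusted permutation p = 1.05e-04 in L1 and 0.00192 in L2), with rho = 0.689 in L1 (4.2e-04) and 0.531 in L2 (0.0729). In L1 the relation was 0.607 in zero and 0.847 in low palms, and 0.747 without 2 palms. In L2 it rested on the high palms, with r = 0.984 in these 8 and -0.00282 in the 12 zero and low palms, and it was 0.737 without 2 palms. High palm 7 had the lowest share of each, 0.00855% of psaC and 0.00827% of psaI, and high palm 5 had 0.0403% and 0.0394%.

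The sign of the relations of psaJ with psaB, ycf3 and ycf4 differed between agencies. With psaC (r = -0.194 in L1 and -0.496 in L2) and psaI (-0.0998 and -0.465) psaJ was negatively related in both. With psaA r was 0.156 in L1 and -0.00446 in L2. The relations of psaJ with psaA, psaC and psaI did not reach an adjusted permutation p below 0.05 in either agency. With ycf4, psaJ had r = 0.723 and rho = 0.699 in L1 (adjusted permutation p = 1.05e-04 and 4.2e-04) and r = -0.640 and rho = -0.456 in L2 (0.00802 and 0.136). With ycf3 it had r = -0.508 and rho = -0.313 in L1 (0.0141 and 0.201) and r = 0.672 and rho = 0.498 in L2 (0.00686 and 0.0957). Without 2 palms the values with ycf4 were 0.641 and -0.482 and those with ycf3 were -0.324 and 0.613. In L2 the 8 high palms and the 12 others gave r = -0.836 and -0.318 with ycf4 and 0.935 and 0.319 with ycf3. With psaB, psaJ had r = 0.796 and rho = 0.796 in L1 (adjusted permutation p = 1.05e-04 and 2.1e-04), or 0.770 without 2 palms. In L2 these were r = -0.481 and rho = -0.427 (0.0809 and 0.162). The difference between agencies was not tested for any pair. The shares of the assembly factor genes ycf3 and ycf4 were negatively related in both agencies, r = -0.581 and rho = -0.440 in L1 (0.00215 and 0.0576) and r = -0.789 and rho = -0.728 in L2 (2.52e-04 and 0.00371), or -0.351 and -0.674 without 2 palms. In L1 ycf3 was also negatively related to psaB, at r = -0.513 and rho = -0.449 (0.00785 and 0.0568), or -0.508 without 2 palms, and positively to psaC (r = 0.511, adjusted permutation p = 0.0103) and psaI (r = 0.439, 0.0323), or 0.375 and 0.377 without 2 palms, with rho = 0.407 and 0.473 (0.0816 and 0.0393).

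**Figure D5:**
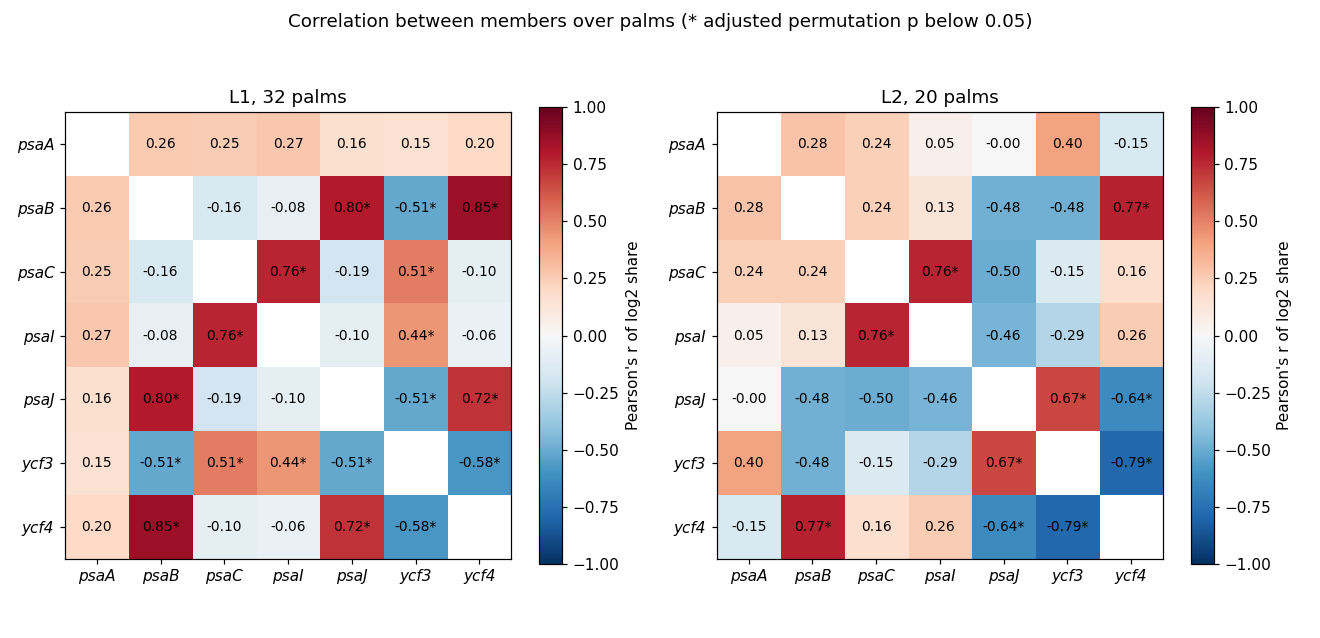
Pearson's r between the log2 shares of each pair of genes over 32 L1 palms (left) and 20 L2 palms (right), on a colour scale from -1 to 1, with an asterisk where the adjusted permutation p was below 0.05. The pairs psaB with ycf4 and psaC with psaI are positive in both agencies, and psaJ with ycf4 is 0.723 in L1 and -0.640 in L2.

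The genes outside the group most like each member were found by the mean of Pearson's r of log2 CPM over the 32 L1 and over the 20 L2 palms, among 18071 genes. For ycf4 they were psbI (mean r 0.911), a small subunit of photosystem II, and its neighbour accD (0.910), a subunit of acetyl-CoA carboxylase. For ycf3 they were rpl32 (0.867) and rpoC1 (0.860), of the plastid ribosome and the plastid-encoded RNA polymerase. For psaB they were rpl20 (0.853) and psbI (0.803), and for psaJ ndhG (0.842), of the NDH complex, and cemA (0.775), of the chloroplast envelope. For psaI they were psbZ (0.783) and ccsA (0.776), and for psaC trnK-UUU (0.757). Only psaA was most like nuclear identifiers, LOC105058743 (0.635) and LOC105045483 (0.632), at lower values than any other member.

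The number of embryoid lines was set against the log2 share of each gene within L1 low palms (n = 15) and within L2 high palms (n = 8), 14 relations in all. None had an adjusted permutation p below 0.05. The smallest unadjusted p was that of psaI in L1 low palms, with r = -0.532 (permutation p = 0.0413, adjusted p = 0.36) and rho = -0.540 (adjusted p = 0.585), and r was -0.284 once the 2 palms with the most extreme line numbers were left out. For psaB in L1 low palms r was 0.507 (adjusted permutation p = 0.36), rho was 0.347 and r was 0.473 without these palms. In L2 high palms psaJ had r = 0.139 (exact permutation p = 0.734, adjusted p = 0.958) and rho = 0.0476. The 2 high palms of most extreme line number were palms 2 and 3, with 434 and 534 lines. Both were among the high palms with psaJ above every zero and low palm. Over the 6 high palms left without them, r was -0.957 for psaJ, -0.930 for ycf3, 0.928 for ycf4 and 0.811 for psaB. Over all 8 it was 0.0605, 0.0242 and 0.164 for the last 3, and no p was computed over the 6.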

How the data were processed

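The values are the authors' deposited counts of reads per gene in 58 libraries, not normalized. The submitters' processing notes name bcl2fastq, STAR 2.7.2b and HTSeq 0.11.2. The strand setting and reference build are not given in the sources used here, so reads of overlapping or antisense genes cannot be told apart. The 5 summary lines of each table were left out. Comparisons were fitted with edgeR 4.0.16 in R 4.3.3 (TMM, filterByExpr, robust glmQLFit and glmQLFTest), with Benjamini-Hochberg adjustment over all genes tested and a threshold of 0.05. Shares of plastid counts were compared over palms by two-sided permutation tests of the mean, by full enumeration if either group had under 10 palms, else with 100000 resamples, and adjusted over plastid genes with a mean of at least 10 counts per library. The log2 share used 0.5 added counts. Medians and ranges of CPM use TMM factors over all 58 libraries. The extraction fit has the palm as a block, because the palm identifier links each pair of libraries. Log2 CPM deviations of paired libraries had r from 0.70 to 0.823, and those of different palms had r of 0.26 or less. Alternatives were DESeq2 1.42.0, RLE scaling, no filter, library sizes without plastid genes, terms for genotype, group or library quality (log total, share of plastid counts and share of multi-mapped reads), CTAB libraries for 6 palms and leaving out palms. The fits with CTAB libraries for 6 palms held both extractions and had no extraction term. Identical libraries were looked for and none was found. EG11 (RefSeq) matched 25047 of 27986 identifiers and was used for names and gene order only. All 7 members, their plastid neighbours and, for each member, the 2 genes most like it over palms were named, except 1 item that is not reported here. Members, lists and tests were chosen with earlier results of these data known. The fits and permutation tests were tested on simulated data.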

Additional observations from a re-analysis of the deposited data

Results flagged for a closer look

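In 5 of 56 sets of values (a gene in a group of 4 to 10 libraries, as CPM or as a share), 1 palm lay far from the others by Dixon's criterion, which chance meets in about 1 of 20 sets. The share of psaA was 0.544% of plastid counts in L2 zero palm 1, where the next highest zero palm had 0.267%. In L2 high palm 6, psaB had 432 CPM and 0.884% of plastid counts, where the next highest high palm, palm 8, had 172.5 CPM and 0.534%. The same high palm 6 had 815 CPM of ycf4, with the next at 411 CPM. The share of psaJ was 0.337% in L2 low palm 4, with the next low palm at 0.212%.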

How the results depend on the processing

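Of the values of single genes, 2067 kept their direction and side of the threshold under the alternatives, 114 changed sign, 22 newly passed and 37 no longer passed; no gene that passed changed sign. The 4 passes between extractions and 3 of the 5 between agencies held under every alternative run. Without the replicate block for the palm, 4 members again passed between extractions.

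Between L2 high and the zero and low palms, 1 member passed, against 2 with DESeq2, 0 with a genotype term, 2 with library quality terms and 1 to 2 leaving out single palms. Against zero palms 0 passed with CTAB libraries for 6 palms and 0 to 1 leaving out single palms; against low palms 1 passed with DESeq2 and 0 to 1 leaving out single palms. Of the shares, in L2 0 passed on the log2 scale and 0 to 1 leaving out single palms, and in L1 low against zero 2 passed on the log2 scale and 0 to 3 leaving out single palms. Between agencies 3 shares passed with protein-coding genes only and 0 to 1 leaving out single palms, with passes of other plastid genes not counted in these alternatives. Leaving out single palms was added for the L1 and agency shares after the data were seen.

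Single genes that did not pass changed sign as follows, in log2 unless said otherwise. With CTAB libraries for 6 palms, which mixes extractions without an extraction term, ycf3 was -0.3951 for L2 high against zero-low and -0.3632 against zero. In the same fits psaB was 0.0273 against zero, ycf4 0.0262 against low, and psaJ -0.1749 for L2 low against zero. In L1 low against zero, psaA was 0.0178 with library quality terms and psaI -0.0322 with a genotype term. Between L1 genotypes ycf3 was 0.0284 with a group term, and between extractions the log2 share of psaJ was 0.0575. Leaving out single palms, the ranges that crossed zero were -0.0482 to 0.0883 for ycf3 in L2 high against zero-low, and against zero -0.5892 to 0.1527 for psaB, -0.1815 to 0.0898 for psaC, -0.0226 to 0.153 for ycf3 and -0.5045 to 0.0483 for ycf4. Against low they were -0.2168 to 0.0402 for psaI, -0.121 to 0.0329 for ycf3 and -0.3961 to 0.0811 for ycf4, and in L2 low against zero -0.0563 to 0.3443 for psaA and -0.2806 to 0.1155 for ycf4. In L1 low against zero they were -0.0352 to 0.1493 for psaC and -0.0478 to 0.1226 for psaI. Between L1 genotypes they were -0.0072 to 0.1987 for psaA, -0.1377 to 0.0546 for psaC, -0.1429 to 0.0998 for psaJ, -0.1045 to 0.0505 for ycf3 and -0.0728 to 0.0551 for ycf4, and in percentage points of share -0.007 to 0.0019 for psaI, -0.0107 to 0.0118 for psaJ and -0.0533 to 0.0392 for ycf4. The interaction of ycf3 ran from -0.0455 to 0.1356. The share differences ran from -0.0571 to 0.0633 for psaJ between extractions and from -0.0128 to 0.0085 for psaA between agencies. The causes were not tested. Counts of psaC and psaI in InnuPREP libraries, at most 141 and 189, limit what could be seen there.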
